A study of Saccharomyces cerevisiae with 4 samples.

Results

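Saccharomyces cerevisiae turns pyruvate into ethanol in a pair of steps, and the 8 genes described here encode the enzymes of both. They are the pyruvate decarboxylase genes PDC1 (YLR044C), PDC5 (YLR134W) and PDC6 (YGR087C) and the alcohol dehydrogenase genes ADH1 (YOL086C), ADH2 (YMR303C), ADH3 (YMR083W), ADH4 (YGL256W) and ADH5 (YBR145W). They were taken by systematic name from the 7127 features of each count file by a rule that uses no measured value, although the group was picked with earlier results of these data known. All 8 were found, and all 8 passed the filter on low counts.

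Pyruvate decarboxylase, a thiamine-dependent enzyme, splits pyruvate into carbon dioxide and acetaldehyde, and alcohol dehydrogenase reduces acetaldehyde to ethanol while it reoxidises the NADH formed in glycolysis. Yeast on ample glucose ferments by this route even in air. PDC1 and ADH1 are the main genes of the fermenting cell, while ADH2 is known as the glucose-repressed gene whose product runs the reaction backwards when ethanol is consumed.

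Messenger RNA was sequenced from a wild-type strain and a TOR1 deletion strain. The wild type was BY4741, a MATa haploid of the S288C background that carries his3-1, leu2-0, met15-0 and ura3-0, and the deletion strain carried the same alleles with TOR1 (YJR066W) replaced by kanMX4. TOR1 encodes a kinase of TOR complex 1, which links nutrient supply to growth. Both strains grew at the same temperature in synthetic glucose medium with ammonium sulfate, histidine, leucine, methionine and uracil, were taken in exponential phase, and carry a time of 4 h in their titles. Each strain has 2 libraries, and the labels do not say whether these came from separate cultures, so p-values measure the spread between libraries, which may be technical. No sugar, ethanol or enzyme activity accompanies them.

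The libraries held 8060480 to 14446057 counts. TOR1 had 635 and 357 counts for the wild type against 0 and 1 for the deletion, as the labels say. LEU2, MET17 (the gene also called MET15) and URA3 had 0 to 3 counts in every library, and HIS3 had 5227 to 21921. The 5 markers of MATa cells were measured at 111 to 2849 CPM (TMM-scaled counts) as strain means, and none passed the test. The 4 markers of the opposite mating type were at 1.39 to 26.8 CPM, of which MF(ALPHA)1 (4.37 to 1.39 CPM) and STE3 (9.69 to 3.46 CPM) fell, calls that both ended without wild-type library 1, and the part of this in the results was not tested. The deletion libraries differed from each other more than the wild-type libraries did, with a chi-square over degrees of freedom of 70.6 against 19.1.

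The genes lie apart on 5 chromosomes of the R64 assembly, each is a single coding exon, and none overlaps another annotated gene there. PDC1 lies at chrXII:232390-234081 on the minus strand, PDC5 at chrXII:410723-412414 on the plus strand and PDC6 at chrVII:651290-652981 on the minus strand. ADH1 lies at chrXV:159548-160594 and ADH2 at chrXIII:873291-874337, both on the minus strand. ADH3 at chrXIII:434788-435915, ADH4 at chrVII:15159-16307 and ADH5 at chrII:533762-534817 are on the plus strand. PDC1 and PDC5 encode proteins of 563 residues that are 87.9% identical, and PDC6 is 84.0% identical to PDC1. ADH1 and ADH2 encode proteins of 348 residues that are 93.1% identical. ADH3, whose product is imported into mitochondria, and ADH5 are 79.6% and 76.7% identical to ADH1. ADH4 belongs to another enzyme family, and its 382 residues gave 22.3% identity with ADH1, against 27.1% between PDC1 and ADH1.

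The likeness of ADH1 and ADH2 bears on how reads can be told apart, so their sequences are shown. Their coding sequences differ at 117 of 1047 bases, and the longest run they share is 189 bases, from coding base 193 to 381 (ADH1 chrXV:160214-160402, ADH2 chrXIII:873957-874145, R64, minus strand). A read that lies wholly within this run could come from either gene:
ADH1 and ADH2: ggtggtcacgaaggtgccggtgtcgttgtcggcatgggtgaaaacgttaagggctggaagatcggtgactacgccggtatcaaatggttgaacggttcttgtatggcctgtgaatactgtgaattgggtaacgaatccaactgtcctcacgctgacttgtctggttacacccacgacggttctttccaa

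The 90 coding bases in which they differ most, bases 625 to 714, hold 22 differences, shown in capitals (ADH1 chrXV:159881-159970, ADH2 chrXIII:873624-873713, R64, minus strand):
ADH1: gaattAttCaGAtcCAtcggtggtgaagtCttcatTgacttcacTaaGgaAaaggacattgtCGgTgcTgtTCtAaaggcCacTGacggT
ADH2: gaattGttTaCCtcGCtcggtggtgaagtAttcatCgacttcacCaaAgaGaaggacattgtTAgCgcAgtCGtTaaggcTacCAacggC

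Of all windows of 50 bases in either coding sequence, 14.0% occur elsewhere in the genome without a mismatch, of 100 bases 9.49%, and of 150 bases 4.45%. For PDC1 and PDC5 the share was 0.974% at 50 bases and 0 at the longer lengths, with a longest common run of 65 bases. The windows of PDC6, ADH3, ADH4 and ADH5 were all found once. The sources used here do not give the read length or the treatment of reads with several matches.

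Of the 8 members 3 changed between the strains in the edgeR test across all genes at a Benjamini-Hochberg adjusted p below 0.05. ADH1 and ADH3 were higher in the tor1 deletion and ADH2 was lower, while PDC1, PDC5, PDC6, ADH4 and ADH5 did not pass. That is 3 of 8, where 51.8% of the 6197 tested genes were called, 26.9% higher and 24.9% lower. Over all genes 1665 were called higher and 1543 lower, against 1179 and 2328 under library-total scaling and 1110 and 2508 under upper-quartile scaling. The median log2 fold change of deletion over wild type was 0.28 over the 8 members and -0.02 over all tested genes. For 7 of the 8 members, all but ADH5, both libraries of one strain lay on one side of both libraries of the other, which held for 78.9% of tested genes. Neither share sets these genes apart from the transcriptome. In bulk RNA, fewer cells that express a gene and less RNA per cell cannot be told apart. Levels are TMM-normalised CPM, and changes are log2 fold changes ± SE with 2 libraries per strain.

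**Figure D1:**
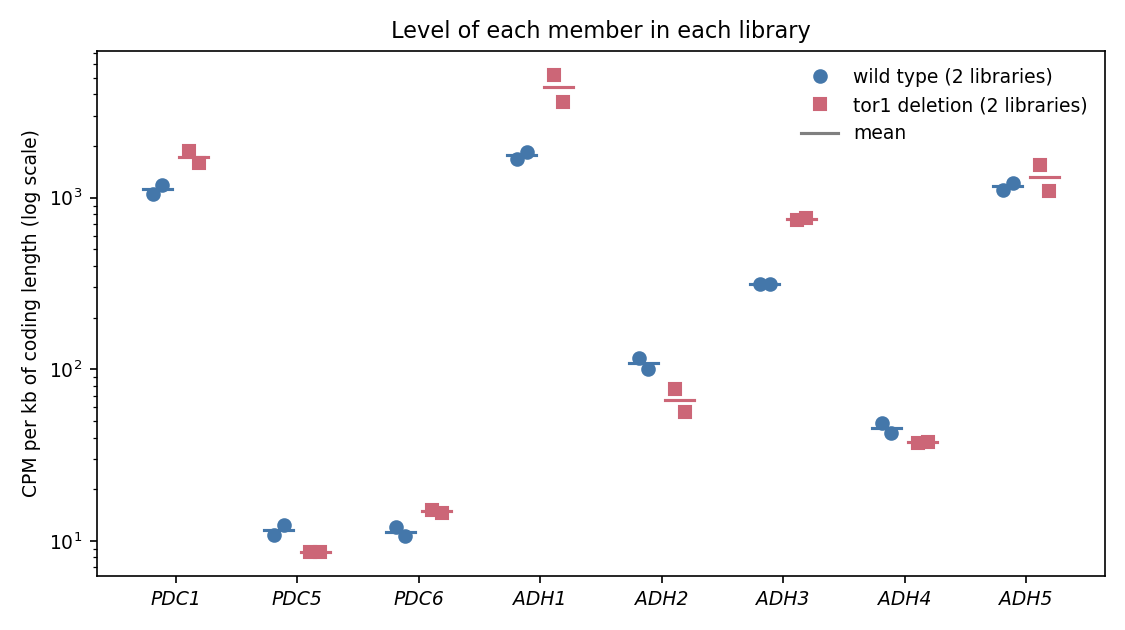
CPM per kb of coding length (log axis) for the 8 genes, with wild-type libraries as circles, tor1 deletion libraries as squares and the mean of each strain as a line. ADH1 and ADH3 lie higher and ADH2 lower in the deletion, and the squares of ADH5 lie on both sides of its circles.

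ADH1, the main ethanol-forming enzyme of the cytosol, was the most abundant member per length in both strains and rose, by about as much as ADH3. Which of the pair changed more depended on the libraries, since without deletion library 1 the change was 1.04 for ADH1 and 1.29 for ADH3. It stood at 1759.9 and 1938 CPM in the wild-type libraries and at 5462 and 3780.2 CPM in deletion libraries 1 and 2, that is 1849 ± 126 against 4621 ± 1189 CPM (SD, n = 2). Both deletion libraries were above both wild-type libraries, and deletion library 1 stood well above deletion library 2. The change was 1.32 ± 0.27, a 2.50-fold rise (edgeR quasi-likelihood adjusted p = 0.00665). Without wild-type library 1 it missed the threshold at 1.26 (edgeR adjusted p = 0.057), and without wild-type library 2 it passed at 1.40 (edgeR adjusted p = 0.0371).

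ADH3 encodes the isoenzyme of the mitochondrial matrix, which is known to take part in moving reducing equivalents between matrix and cytosol. Its wild-type libraries held 352 and 353 CPM and its deletion libraries 833 and 857 CPM. The libraries of a strain lay close together and the strains far apart, with means of 353 ± 0.999 and 845 ± 16.9 CPM. An SD between 2 libraries, as given here, can lie below counting error. ADH3 rose by 1.26 ± 0.18, or 2.40-fold (edgeR adjusted p = 0.00168), and passed in each of the 14 other settings tried, between 0.87 and 1.29.

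ADH2, which encodes the ethanol-oxidising isoenzyme of the cytosol, fell. It was measured at 123 and 105 CPM for the wild type against 79.9 and 58.9 CPM for the deletion, without overlap. The strain means were 114 ± 12.4 and 69.4 ± 14.8 CPM, and the change was -0.72 ± 0.21, a 1.64-fold fall (edgeR adjusted p = 0.0242). The call ended without wild-type library 1, at -0.59 (edgeR adjusted p = 0.224), and without wild-type library 2, at -0.81 (edgeR adjusted p = 0.0753). With ADH1 and ADH2 counted as a single feature, the sum was higher in the deletion by 1.26 ± 0.27 (edgeR adjusted p = 0.00811). The more abundant ADH1 sets this sum, which therefore cannot show the direction of ADH2. Counted apart, ADH2 and ADH1 differed in direction although they share the sequence shown above. Whether reads passed between the pair was not tested.

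ADH4 and ADH5 did not pass. ADH4, known as the isoenzyme of zinc-poor cells, had 56.1 and 49.1 CPM for the wild type against 42.8 and 43.4 CPM for the deletion, a change of -0.29 ± 0.18 (edgeR adjusted p = 0.205). ADH5, a further cytosolic isoenzyme gene, had 1178 and 1291 CPM for the wild type against 1631 and 1162 CPM for the deletion. The deletion libraries of ADH5 lay above and below the wild-type ones, and its change was 0.18 ± 0.24 (edgeR adjusted p = 0.558). Without deletion library 2 the value for ADH5 was 0.40 (edgeR adjusted p = 0.0466), and without deletion library 1 it was -0.077 (edgeR adjusted p = 0.707), so its sign rested on which deletion library was kept.

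PDC1, the main decarboxylase gene, missed the threshold narrowly. It was measured at 1773 and 2007 CPM for the wild type against 3185 and 2692 CPM for the deletion. All deletion values exceeded the wild-type ones, the change was 0.64 ± 0.23, and the edgeR quasi-likelihood adjusted p was 0.0531. PDC1 passed with DESeq2 (adjusted p = 0.0106), with the edgeR likelihood ratio test (adjusted p = 0.0158), with limma-voom (adjusted p = 0.0431), with no low-count filter (edgeR adjusted p = 0.0492) and without deletion library 1 or 2 (edgeR adjusted p = 0.00788 and 0.00102). It did not pass without wild-type library 1 or 2 (edgeR adjusted p = 0.413 and 0.272) or with a replicate term (edgeR adjusted p = 0.119). Its change was 0.31 under library-total scaling and 0.24 under upper-quartile scaling, and neither passed.

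PDC5 and PDC6 were both scarce. PDC5, a second active isoenzyme gene that is known to be induced when PDC1 is lost or thiamine is scarce, had 298, 223, 102 and 138 counts, first in both wild-type and then in both deletion libraries. These correspond to 18.2 and 21.0 CPM against 14.7 and 14.6 CPM, a change of -0.42 ± 0.22 that did not pass (edgeR adjusted p = 0.154). PDC6, a minor isoenzyme gene known for its expression under sulfur limitation, had 334, 191, 179 and 233 counts in the same order. Its levels of 20.4 and 17.96 CPM against 25.7 and 24.7 CPM gave a change of 0.39 ± 0.21 (edgeR adjusted p = 0.157). Both deletion libraries were below both wild-type ones for PDC5 and above them for PDC6.

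The direction of ADH5 and PDC6 and the calls of PDC5 and ADH4 depended on the scaling. Over all genes the median change was -0.02 with TMM, -0.35 under library-total scaling and -0.41 under upper-quartile scaling. ADH1 and ADH3 stayed higher, at 0.99 and 0.93 under library-total scaling and at 0.93 and 0.87 under upper-quartile scaling. ADH2 stayed lower at -1.05 and -1.11. PDC5 was called lower under library-total scaling (-0.74, edgeR adjusted p = 0.0296) and under upper-quartile scaling (-0.81, edgeR adjusted p = 0.0185). ADH4 was likewise called lower under library-total scaling (-0.61, edgeR adjusted p = 0.0294) and under upper-quartile scaling (-0.68, edgeR adjusted p = 0.0138). ADH5 turned from 0.18 to -0.16 and -0.22, and PDC6 from 0.39 to 0.063 and -0.0029, none of them called.

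**Figure D2:**
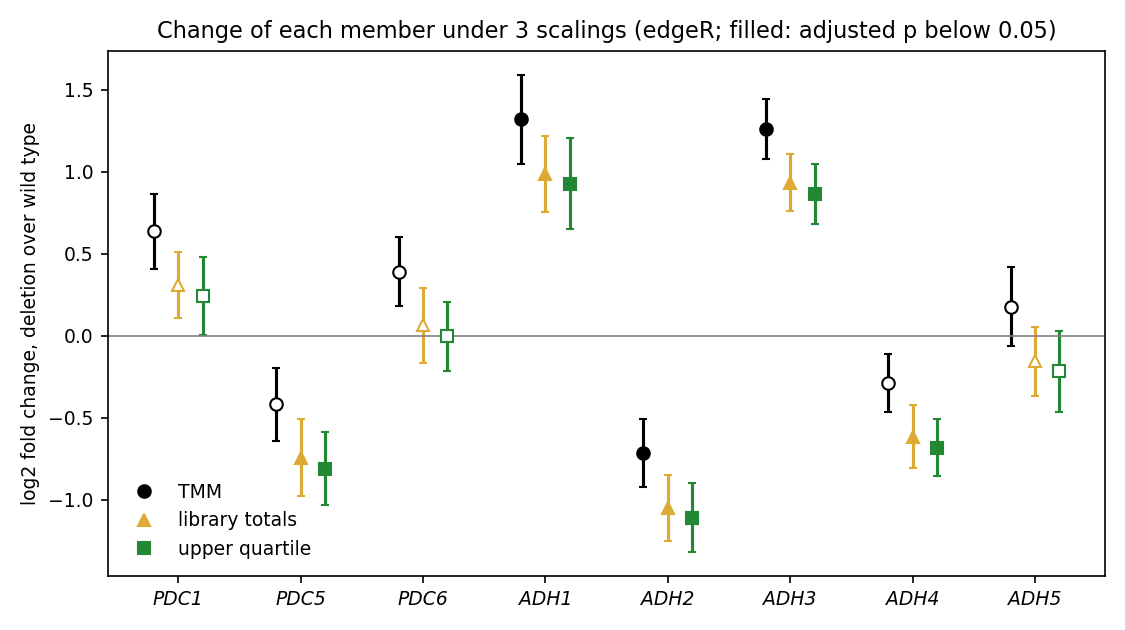
Log2 fold change of deletion over wild type for each gene with TMM (circles), library totals (triangles) and upper quartile factors (squares), bars showing ± SE over 2 libraries per strain, filled symbols passing an adjusted p of 0.05. ADH1, ADH2 and ADH3 are filled under all 3 scalings, and PDC5 and ADH4 under library totals and upper quartile factors. ADH5 changes sign under both of the latter, and PDC6 under upper quartile factors alone (-0.0029).

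Ratios between members within a library need no scaling between libraries. ADH1 had 14.36 and 18.45 counts for each count of ADH2 for the wild type against 68.4 and 64.1 for the deletion. The ratio of ADH1 to ADH5 counts was 1.494 and 1.502 for the wild type against 3.35 and 3.25 for the deletion, so that both ratios separated the strains by more than the spread between libraries. ADH3 and ADH1 kept no such order, with 0.200 and 0.182 counts of ADH3 per count of ADH1 for the wild type against 0.153 and 0.227 for the deletion. With 2 libraries against 2, the two-sided exact permutation test cannot go below p = 0.333, which every non-overlapping ratio reached.

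Among the 5 ADH genes, scaled by coding length, ADH1 made up 51.3% and 52.4% of the sum for the wild type against 68.5% and 64.9% for the deletion. The share of ADH5 went from 34.1% and 34.6% to 20.3% and 19.8%. ADH3 held 9.53% and 8.88% for the wild type against 9.70% and 13.7% for the deletion, and ADH2 went from 3.58% and 2.84% to 1.00% and 1.01%. ADH4 made up the remainder, 1.49% and 1.21% against 0.489% and 0.678%. The family therefore consisted of ADH1 to a larger part in both deletion libraries, and of ADH5, ADH2 and ADH4 to a smaller part. The share of ADH3 was also larger in both, but only narrowly in deletion library 1. A share depends on the other genes of the sum, and the level of ADH5 itself changed by 0.18 ± 0.24 and did not pass.

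Among the 3 PDC genes PDC1 held 97.9% and 98.1% of the sum for the wild type against 98.7% and 98.6% for the deletion. PDC5 held 1.00% and 1.02% for the wild type against 0.454% and 0.535% for the deletion, and the ratio of PDC1 to PDC5 counts went from 97.5 and 95.7 to 217 and 184. The share of PDC6 overlapped between strains, at 1.13% and 0.878% against 0.797% and 0.903%. The 3 PDC genes share 1 coding length of 1692 bases, so these shares are the same per length.

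**Figure D3:**
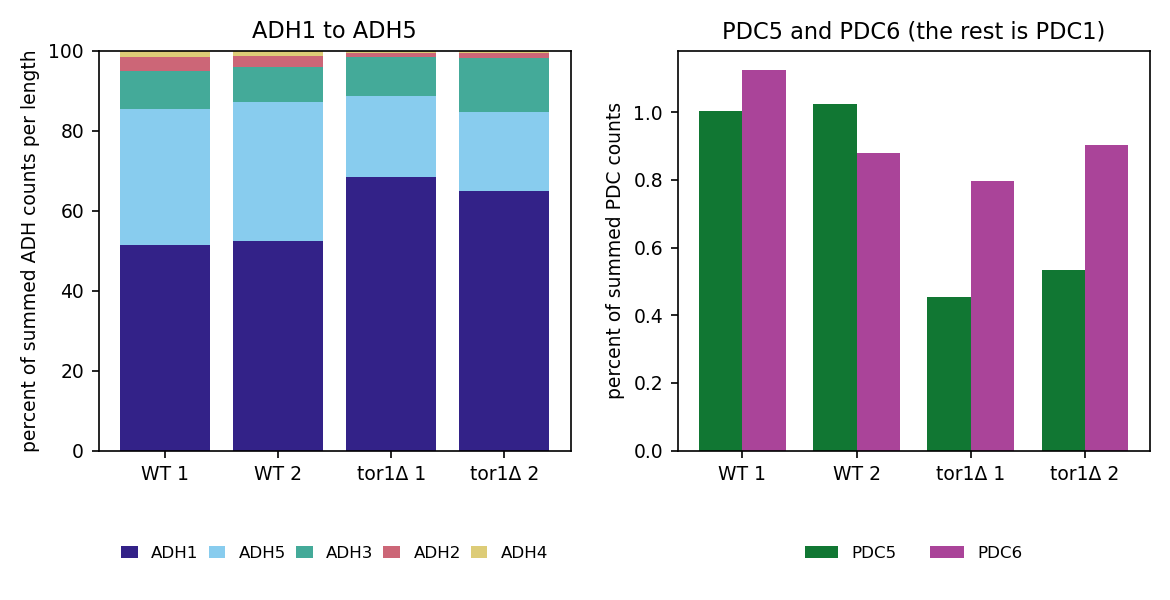
Left, stacked shares (percent) of ADH1 to ADH5 in their summed counts per coding length in each of the 4 libraries, and right, shares (percent) of PDC5 and PDC6 in the summed PDC counts. ADH1 fills 51.3% and 52.4% of the wild-type bars and 68.5% and 64.9% of the deletion bars, and PDC5 is lower in both deletion libraries.

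Counted as whole families, the ADH sum rose and the PDC sum did not pass. The ADH sum went from 3468 and 3737 CPM to 8049.5 and 5901 CPM, a change of 0.95 ± 0.27 (edgeR adjusted p = 0.0235). Its call ended without either wild-type library (edgeR adjusted p = 0.208 and 0.167), under library-total scaling (0.62, edgeR adjusted p = 0.053) and under upper-quartile scaling (0.56, edgeR adjusted p = 0.126). The PDC sum went from 1811 and 2046 CPM to 3226 and 2731 CPM, a change of 0.63 ± 0.23 (edgeR adjusted p = 0.0562). The PDC sum passed without deletion library 1 or 2 (edgeR adjusted p = 0.00918 and 0.00135) and not without wild-type library 1 or 2 (edgeR adjusted p = 0.421 and 0.283). The ratio of the ADH sum to the PDC sum was 1.91 and 1.83 for the wild type against 2.50 and 2.16 for the deletion. Together the 8 genes took 0.599% and 0.639% of all counts for the wild type against 0.974% and 0.796% for the deletion.

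Per kb of coding length the order of levels in the wild type was ADH1, at 1766 ± 121 CPM per kb, then ADH5 at 1169 ± 75.6 and PDC1 at 1117 ± 97.9, whose libraries overlapped. ADH3 followed at 313 ± 0.886 CPM per kb, ADH2 at 109 ± 11.8 and ADH4 at 45.8 ± 4.29. PDC5 and PDC6, at 11.6 ± 1.17 and 11.3 ± 1.01 CPM per kb, overlapped at the bottom. In the deletion ADH1 led with 4414 ± 1136 CPM per kb, and PDC1 at 1737 ± 206 stood before ADH5 at 1322 ± 314. The levels of ADH3 and ADH2 there were 749 ± 14.96 and 66.3 ± 14.1 CPM per kb, 11.3-fold apart against 2.88-fold in the wild type. PDC6 at 14.9 ± 0.443 CPM per kb stood above PDC5 at 8.64 ± 0.021, without overlap. These SDs are between 2 libraries and can lie below counting error, PDC5 resting there on 102 and 138 counts.

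The upstream sequences of ADH1 and ADH2 are shown because the pair changed in opposite directions. In the 500 bases before the start codon, searched on both strands, ADH2 held the core TTGGAG of Adr1, the activator of ethanol-use genes, at 2 places, from 291 to 286 and from 277 to 272 bases before the start codon and in opposite orientation. TTGGAG or TTGGGG occurred in 26.2% of the 6000 promoters of that length, and besides ADH2 ADH4 was the member with a match. The core CTTCC of Gcr1, an activator of glycolytic genes, occurred at 5 places before ADH1, at 2 before ADH5 and at 1 each before ADH3 and ADH4, and in 66.1% of all promoters. Of the places before ADH1, 2 overlap by 1 base. The stress response element AGGGG was present once each before PDC1, PDC5, ADH1 and ADH5 and in 34.1% of promoters. The core CTTNAAGG of the zinc response element was in none of the 8 and in 6.95% of promoters. TATAAA was found before all members but PDC5 and in 60.5% of promoters. The 300 bases before each start codon follow, with Adr1 and Gcr1 cores and AGGGG in capitals (ADH1 chrXV:160595-160894, ADH2 chrXIII:874338-874637, R64, minus strand). Such matches are letters in a window and show no binding:
ADH1: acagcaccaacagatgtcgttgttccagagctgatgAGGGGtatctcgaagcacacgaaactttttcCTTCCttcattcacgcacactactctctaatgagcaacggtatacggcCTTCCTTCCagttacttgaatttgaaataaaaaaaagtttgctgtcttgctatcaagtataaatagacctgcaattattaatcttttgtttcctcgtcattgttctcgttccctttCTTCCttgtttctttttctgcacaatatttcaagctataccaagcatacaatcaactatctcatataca
ADH2: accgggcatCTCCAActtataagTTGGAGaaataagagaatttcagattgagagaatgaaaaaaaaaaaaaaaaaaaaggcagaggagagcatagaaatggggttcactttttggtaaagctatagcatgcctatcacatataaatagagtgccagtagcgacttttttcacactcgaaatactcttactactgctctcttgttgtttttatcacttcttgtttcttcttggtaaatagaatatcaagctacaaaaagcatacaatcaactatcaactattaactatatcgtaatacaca

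The regulators listed for ADH2 and glucose repression include both activators and repressors, and ADR1, CAT8 and MIG1 rose while ADH2 fell. Among 14 listed regulators of ADH2 and of glucose repression 9 rose and 1 fell, with a median of 0.84 and 4 that did not pass. ADR1, the activator of ADH2, rose from 13.6 ± 0.0649 to 141 ± 22.4 CPM (3.38 ± 0.20), and CAT8, which activates genes for growth without glucose, rose from 15.4 ± 0.931 to 65.4 ± 8.43 CPM (2.08 ± 0.20). MIG1, a glucose repressor, rose from 28.9 ± 0.253 to 386 ± 52.1 CPM (3.74 ± 0.20). SIP4, an activator gene named after its value was seen, fell by 0.96 (edgeR adjusted p = 0.00681). Without wild-type library 1 or 2, 5 of the 14 rose, and 7 and 6 did under library-total and upper-quartile scaling. None of the 4 listed activators of glycolytic genes passed, with changes of 0.052 for RAP1, -0.24 for GCR1, 0.68 for GCR2 and 0.45 for TYE7. GCR2 was called higher with DESeq2, the likelihood ratio test, no low-count filter and a replicate term and without deletion library 1, TYE7 was called higher without deletion library 2, and GCR1 was called lower under upper-quartile scaling and without deletion library 2.

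Around the decarboxylase step the pyruvate and acetaldehyde genes were mostly higher. Of 16 genes of pyruvate supply and mitochondrial pyruvate use, 12 rose and none fell, 4 did not pass, and the median was 0.78. MPC3, a subunit of the mitochondrial pyruvate carrier, rose from 65.4 ± 9.70 to 1397 ± 113 CPM, PYK2, the minor pyruvate kinase, from 39.2 ± 3.51 to 331 ± 40.9 CPM, and PTC6, a phosphatase that acts on pyruvate dehydrogenase, from 51.6 ± 3.92 to 161 ± 36.3 CPM. Without wild-type libraries 1 and 2, 5 and 6 of these 16 rose, and 7 did under library-total or upper-quartile scaling. Of 8 genes of acetaldehyde and acetate use, 6 rose, 1 (ALD5) fell and 1 (ACS2) did not pass, with a median of 1.96. ALD4, mitochondrial aldehyde dehydrogenase, rose by 5.23 ± 0.29, ALD6, its cytosolic counterpart, by 4.49 ± 0.29 and ACH1, a CoA transferase, by 4.30 ± 0.24. ALD5 and ACS2 were named after their values were seen, and the fall of ALD5 missed the threshold without wild-type library 2.

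Genes of other alcohol dehydrogenases and aldehyde reductases were higher in part. Among 8 further alcohol dehydrogenase and aldehyde reductase genes 4 rose and 4 did not pass, with a median of 0.55. Under library-total and upper-quartile scaling 3 of the 8 rose. Their medians were then 0.22 and 0.15, against -0.35 and -0.41 over all genes. BDH2 rose from 87.1 ± 0.277 to 1858 ± 122 CPM, its neighbour BDH1, butanediol dehydrogenase, from 201 ± 12.4 to 1767 ± 542 CPM, and GRE3, aldose reductase, from 105 ± 8.89 to 408 ± 147 CPM. ADH6, ADH7 and SFA1, named after their values were seen, were at -0.022, 0.23 and 0.15 and did not pass. Of 8 genes for NADH reoxidation beside ethanol formation 6 rose, 1 (GPP1, named after its value was seen) fell and 1 did not pass, with a median of 2.37. NDI1, the internal NADH dehydrogenase of mitochondria, rose by 3.19 ± 0.22, NDE2, an external one, by 2.75 ± 0.25 and GPD1, a glycerol-3-phosphate dehydrogenase, by 2.37 ± 0.20. The edgeR quasi-likelihood adjusted p of the genes named as risen among regulators, pyruvate, acetaldehyde, alcohol dehydrogenase and NADH genes lay between 6.29e-05 and 0.00146. Without wild-type library 2 the fall of GPP1 missed the threshold.

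Lists tied to conditions known to induce PDC5, PDC6 and ADH4 were read beside those genes. Of 4 genes that encode a related decarboxylase or regulators of PDC genes, 3 fell and 1 did not pass, with a median of -0.82. ARO10, a decarboxylase of aromatic keto acids, fell (-1.09), as did THI3 (-0.74) and THI2 (-0.89), a pair of regulators of thiamine genes. PDC2, an activator of PDC1 and PDC5, was at -0.185 and did not pass. Without either wild-type library 1 of the 4 fell, and under library-total or upper-quartile scaling all 4 did. Among 17 thiamine genes 16 were tested, of which 4 fell, 1 rose and 11 did not pass, with a median of -0.28 against -0.02 over all genes. Of all 6197 tested genes, 1543 (24.9%) were called lower with TMM, 2328 under library-total scaling and 2508 under upper-quartile scaling. With TMM the part of the thiamine list that fell was near that share. THI80, thiamine pyrophosphokinase, fell (-1.44), as did PHO3, an acid phosphatase gene (-1.38), and THI22 (-0.88). THI5, THI11, THI12 and THI13 form a near-identical family whose counts are uncertain. Without either wild-type library 2 thiamine genes fell, and under library-total or upper-quartile scaling 7 did.

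Of 15 zinc response genes 3 rose and 2 fell, 10 did not pass, and the median was 0.13. Over all tested genes 26.9% were called higher and 24.9% lower with TMM, and neither number of the zinc list exceeded that share. ZRT1, the high-affinity zinc transporter, fell (-1.29), as did ZPS1 (-1.93), while ZRG8 rose by 1.20 (edgeR adjusted p = 0.00391), a call that ended without wild-type library 1. ZAP1, the zinc-responsive activator and named after its value was seen, was at 0.13 ± 0.18 and did not pass. The numbers of rises and falls became 1 and 3 under library-total scaling, 1 and 5 under upper-quartile scaling, 0 and 2 without wild-type library 1, and 1 and 2 without wild-type library 2. Of 12 sulfate assimilation genes 10 fell, 1 (CBF1, named after its value was seen) rose and 1 did not pass, with a median of -1.58. MET5 (-1.94), MET14 (-1.91) and MET10 (-1.64), which act in the path from sulfate to sulfide, were among those that fell. CBF1 missed the threshold under library-total and upper-quartile scaling, and when wild-type library 1 or 2 was left out. The edgeR adjusted p of the genes named as fallen in these lists lay between 0.000324 and 0.0238.

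**Figure D4:**
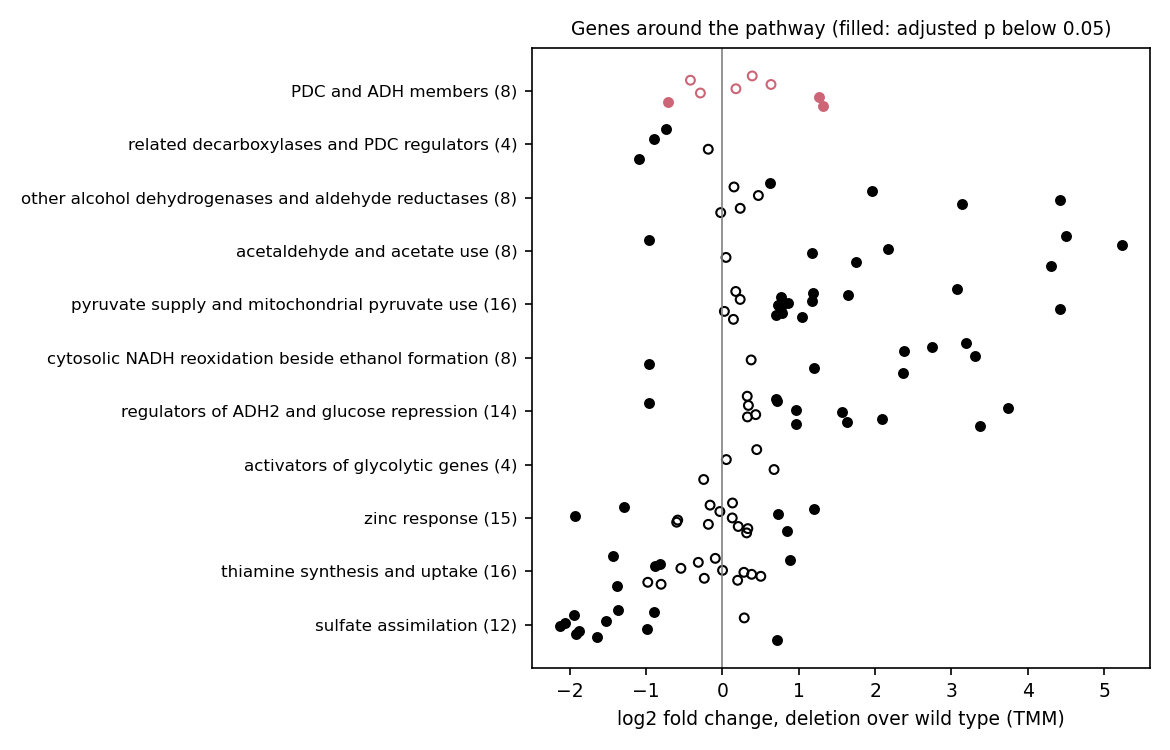
Log2 fold change of deletion over wild type (TMM) for the 8 PDC and ADH genes and for the tested genes of 10 lists, 1 point a gene, filled where the edgeR adjusted p is below 0.05. The members lie between -0.72 and 1.32. Genes of acetaldehyde use, pyruvate use, NADH reoxidation, other alcohol dehydrogenases and regulators of ADH2 reach past 3.

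Profiles over the 4 libraries were compared by the root mean square difference of centred log2(CPM + 1), among 5008 genes with a mean log2(CPM + 1) of at least 4. The closest to PDC1 were TSA1, a peroxiredoxin gene, at 0.0112 and ACT1, the actin gene, at 0.0117. The closest to ADH1 were ROQ1 at 0.0394 and YBL029C-A at 0.0526, and to ADH3 VCX1, a vacuolar exchanger gene, at 0.0191 and YMR027W at 0.0231. SRO77 at 0.0164 and IML1 at 0.0303 were closest to ADH2. For the remaining members they were IPP1 and RTC4 (PDC5), SPT6 and MRX16 (PDC6), RTF1 and TEX1 (ADH4) and POA1 and HSP10 (ADH5), at 0.0138 to 0.0304. With 4 libraries such closeness describes these values only.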

How the data were processed

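Poly(A) RNA of 2 wild-type and 2 tor1 deletion libraries, grouped by their titles, was sequenced on an Ion Torrent platform, per the labels' protocols. Per library, the authors deposited a file of raw counts by gene. The submitters' processing notes name FastQC, Subread, featureCounts and sacCer3, without versions, and the strand setting and annotation were not found in them. A deposited table of log10 values for 6519 genes equalled log10 of the count over a constant per library, plus 1, and served as an alternative (limma on log2 values).

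The main test was edgeR's quasi-likelihood test (edgeR 4.0.16, R 4.3.3) with strain as sole factor, on the 6197 of 7127 features that passed filterByExpr, with TMM factors and Benjamini-Hochberg adjustment over all of them. SE is the absolute log2 fold change over the square root of F. The fits were tested on simulated data. Alternatives were DESeq2 1.42.0, limma-voom 3.58.1, the likelihood ratio test, other scalings and filters, a replicate term, summed genes, and each library left out. CPM are TMM-normalised. Depth was 8060480 to 14446057 counts, where 3 counts, the limit that a count of 0 allows, are 0.208 to 0.372 CPM. This limit was taken over library totals without TMM factors and covers counting error only.

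Names, positions and sequences came from the RefSeq annotation and genome of R64 (the assembly behind sacCer3). Systematic names matched 6047 features and symbols 41. Proteins were translated from that genome and aligned globally (BLOSUM62, Biopython 1.88). Members and lists were chosen with earlier results of these data known. Named were all members, of each list the 3 genes with the smallest p (all of a list of 5 or fewer), the 2 closest profiles per member, and the exceptions said to be named after their values were seen.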

Additional observations from a re-analysis of the deposited data

How the results depend on the processing

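ADH3 was called higher in all settings run, and ADH1 and ADH2 kept their calls in all but the left-out libraries given with them (and the summed pair for ADH2). The PDC sum, not called with TMM, passed with DESeq2 (0.64), limma-voom (0.62) and the likelihood ratio test (0.63), and the ADH sum, called with TMM, missed under library-total (0.62) and upper-quartile scaling (0.56). Leaving out single libraries gave 0.51 to 0.74 for the PDC sum, which passed without either deletion library and not without either wild-type library, and 0.72 to 1.16 for the ADH sum, with 1 to 4 members higher and 0 to 1 lower. Members called lower numbered 3 under library-total and 3 under upper-quartile scaling. Over all genes 1665 were higher and 1543 lower. The lower ones numbered 2328 and 2508 under those scalings, and left-out libraries gave 1045 to 2281 higher and 915 to 2179 lower. Signs turned for PDC6 under upper-quartile scaling (-0.0029), for ADH5 under upper-quartile (-0.22) and library-total scaling (-0.16) and over left-out libraries (-0.077 to 0.40), for ADH2 when summed with ADH1 (1.26) and for PDC5 when summed with PDC1 (0.63), where the more abundant gene sets the sum. Where a library is left out, the lone library of its strain is assumed to vary like the other strain. The cause of the other changes was not tested.

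Same-numbered libraries of the strains did not deviate together (r = -0.061). This is a single value from 2 libraries per strain and cannot tell whether same-numbered libraries shared a culture or run. With the replicate block 1649 genes were higher and 1667 lower, and 2 members were higher and 1 lower. With 2 libraries per strain, the spread rests on few values. PDC5 and PDC6 rested on 102 to 334 counts a library, the other members on 298 to 38030.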
